A study of Mus musculus with 59 samples.

Results

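Complex III, complex IV and the ATP synthase are the last 3 machines of mitochondrial oxidative phosphorylation, and most of their subunits are encoded in the nucleus. The 43 genes described here are all rows of the deposited expression table whose symbol starts with Uqcr, Cox4, Cox5, Cox6, Cox7, Cox8 or Atp5 and carries no -ps suffix, 43 of 47643 rows. They comprise 8 Uqcr genes of complex III, 18 Cox genes of complex IV and 17 Atp5 genes of the ATP synthase. The symbols alone chose them, and 4 further matches with the -ps suffix were left out. A few of the 43 carry the symbol without being structural subunits: Cox7a2l is a factor that joins complexes III and IV into supercomplexes, Atp5s is factor B, a coupling factor, and Atp5sl is also known as Dmac2, an assembly factor of complex I. Known subunits such as Cyc1 lie outside the symbol rule and are given among the comparison lists.

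The libraries are RNA-seq of muscles from female NCI Ath/nude mice of 4 months, immunodeficient animals that carried a human melanoma as a patient-derived xenograft. Mice with the MAST360B tumour are the cachectic group and mice with the MAST552A tumour the non-cachectic group, so every mouse had a melanoma, none was tumour-free, and cachexia differs together with the tumour line. In the diaphragm each melanoma was combined with intraperitoneal injections of recombinant Fibcd1 (rFibcd1), a secreted protein, or of the vehicle, 1% BSA in PBS (mock), which gave 10 cachectic mock, 10 cachectic rFibcd1, 9 non-cachectic mock and 10 non-cachectic rFibcd1 libraries. The tibialis anterior and the soleus were sampled from both melanomas without rFibcd1, with 5 libraries in each of the 4 groups, for 59 libraries in 8 groups.

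Complex III takes electrons from ubiquinol and hands them to cytochrome c, complex IV hands them on to oxygen, and both pump protons whose return drives the ATP synthase. Each complex mixes nuclear subunits with a few encoded on the mitochondrial genome, the mt-Cytb subunit of complex III, the mt-Co1 to mt-Co3 core of complex IV and mt-Atp6 and mt-Atp8 of the ATP synthase. Complex IV alone has striated-muscle isoforms of 3 small subunits, Cox6a2, Cox7a1 and Cox8b, which stand in for the ubiquitous Cox6a1, Cox7a2 and Cox8a.

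Values are TPM, a transcript abundance that is scaled for transcript length and sums to 1000000 in every library. Read depth is unknown from such values, and no counting interval is given. Since the mitochondrially encoded transcripts took 24.1% to 51.9% of all TPM and took less in cachectic muscle, the TPM of every other gene rises with no change of its own when they fall. The median change of all genes tested was 0.20 (log2) in the mock diaphragm, 0.41 in the tibialis anterior and 0.09 in the soleus, higher with the cachectic melanoma. A change of a member is therefore read against that median, and again after median-ratio scaling, in which each library is scaled by the median ratio of its genes to their mean over libraries. Group labels were checked against muscle genes. Myh7, the slow myosin, averaged 4945 TPM in non-cachectic soleus, 344.2 TPM in non-cachectic mock diaphragm and 0.849 TPM in non-cachectic tibialis anterior, and Myh4, the fastest myosin, averaged 14.8 TPM, 220.0 TPM and 11178 TPM in the same groups. The libraries also divided by Pcna-ps2, a processed pseudogene that was below 1 TPM in some and at or above 1 TPM in others, and many genes moved with it. All 10 cachectic limb libraries were at or above 1 TPM and all 10 non-cachectic limb libraries below it, so that division and the melanoma cannot be told apart there. In the diaphragm 9 of 10 cachectic mock, 8 of 10 cachectic rFibcd1, 3 of 9 non-cachectic mock and 6 of 10 non-cachectic rFibcd1 libraries were at or above 1 TPM.

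The 43 genes together made up 2.02% to 4.59% of all TPM. The most abundant in the non-cachectic mock diaphragm were Cox6a2 at 2418 ± 261 TPM (SD, n = 9), Cox8b at 2214 ± 256 TPM and Atp5a1, the alpha subunit of the catalytic head, at 2051 ± 138 TPM. All 8 complex III genes lay between 331.0 TPM (Uqcrq) and 836.3 TPM (Uqcr11) in that group, a narrower span than in the other complexes. Low members were Atp5sl at 33.5 ± 6.32 TPM, Atp5s at 16.5 ± 1.38 TPM, Cox4i2, the lung and hypoxia isoform of Cox4, at 6.71 ± 1.03 TPM, and Cox6b2, the testis isoform of Cox6b, at 2.04 ± 0.348 TPM. Beside Cox4i2, the general isoform Cox4i1 had 1023 ± 80.5 TPM, and beside Cox6b2, Cox6b1 had 1264 ± 84.0 TPM. Cox7b2 did not pass 0.368 TPM in any library, and Cox8c was listed at 0 in all 59. These 2 testis genes were below the filter on low values (1 TPM in as many libraries as the smallest group of a fit has), so that 41 members were tested in the diaphragm and across muscles and 40 in the tibialis anterior and soleus, where Cox6b2 was also below it.

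Among the 3 muscles of non-cachectic mice, the summed TPM of the members were highest in the diaphragm and lowest in the tibialis anterior. The summed complex IV genes had 12788 ± 1302 TPM (SD, n = 9) in mock diaphragm, 12092 ± 207 TPM (n = 5) in soleus and 8487 ± 565 TPM (n = 5) in tibialis anterior. The summed ATP synthase genes had 11692, 10583 and 9099 TPM in that order, and the summed complex III genes 5128, 4579 and 4025 TPM. As a share of the TPM outside mitochondrial genes the diaphragm was again highest, and the limb muscles lay within their spread for complex III (0.778% ± 0.0367 in soleus, 0.783% ± 0.0515 in tibialis anterior) and the ATP synthase (1.80% ± 0.0818 and 1.77% ± 0.120), with 2.05% and 1.65% for complex IV. With limma on log2(TPM + 1) and Benjamini-Hochberg adjustment over all genes, 40 of 41 members were called higher in diaphragm than in tibialis anterior and none lower, where 72.5% of all 13501 genes tested were called and 64% were higher. Their median difference of 0.42 was close to that of all genes, 0.44, and after median-ratio scaling 4 were called higher and 13 lower, where 70.9% of all genes were called, so the general direction follows the scaling. The members at the top kept their direction under both scalings. Cox8a differed by 1.64 ± 0.14 (log2, SE; adjusted p = 2.4e-12, limma), Cox6a1 by 1.41 ± 0.18 and Cox6b2 by 1.10 ± 0.11. Cox6b2 had at most 0.829 TPM in the tibialis anterior. It passed the filter of this fit through the diaphragm libraries, so its difference is a description and not read as a result. Members nearest to 0, Atp5e, Atp5l and Uqcr10, differed by 0.18, 0.23 and 0.24 and turned to -0.40, -0.35 and -0.34 after the scaling.

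Diaphragm against soleus gave 15 members called higher and 1 lower, where 38.8% of all genes were called, 16.8% higher and 22.1% lower. The median difference of the members was 0.16 against -0.04 for all genes. After median-ratio scaling 12 were called higher and 1 lower, where 47.2% of all genes were called, and the median was 0.20. Cox7a1 at 0.68 ± 0.27 (adjusted p = 0.044, limma), Atp5g1 at 0.56 ± 0.13 and Cox6b2 at 0.49 ± 0.11 had the highest values among the called members. Cox6b2 entered this comparison too through the diaphragm libraries, being below the filter in the soleus's own fit, so its value is a description. The Cox7a1 call was lost after median-ratio scaling, with no filter and in 11 of 39 fits that left out 1 library. Atp5g1 is 1 of 3 genes that encode the same mature c subunit of the rotor ring. Cox6a2 was the single member called lower in diaphragm, by -0.33 ± 0.10 (adjusted p = 0.0102). Tibialis anterior against soleus gave 25 members called lower and none higher, where 69.5% of all genes were called and 63.9% were lower, with Cox8a at -1.39 ± 0.16, Cox6a2 at -1.04 ± 0.12 and Cox4i2 at -0.99 ± 0.17. The members' median there was -0.23 against -0.47 for all genes, and after median-ratio scaling it was 0.38 with 24 called higher and 4 lower, where 53.3% of all genes were called. Atp5o, Cox4i1 and Atp5c1, at -0.17, -0.18 and -0.18, turned to 0.46, 0.45 and 0.45.

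Of the 3 isoform pairs of complex IV, the Cox7a pair moved most with the cachectic melanoma. Cox7a1 and Cox7a2 occupy the same position in complex IV, Cox7a1 mainly in heart and skeletal muscle. A ratio of 2 genes within a library does not move with the scaling of that library. The promoters of this pair and of the Cox8 pair, the 250 bases before the RefSeq start in GRCm38.p6, are shown because members of each pair moved apart. Capitals mark every match, on either strand, to TGCGCA, the core letters of sites for nuclear respiratory factor 1, to CCGGAA, those for ETS-type factors such as Gabpa, and to CANNTG, those for E-box factors such as the myogenic regulators.
Cox7a1, muscle isoform, chr7:30183921-30184170, plus strand: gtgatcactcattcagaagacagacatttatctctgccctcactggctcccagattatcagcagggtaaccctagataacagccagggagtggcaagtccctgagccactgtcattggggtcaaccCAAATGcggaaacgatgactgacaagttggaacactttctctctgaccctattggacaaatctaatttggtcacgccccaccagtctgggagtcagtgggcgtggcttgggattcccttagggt
Cox7a2, ubiquitous isoform, chr9:79759854-79760103, minus strand: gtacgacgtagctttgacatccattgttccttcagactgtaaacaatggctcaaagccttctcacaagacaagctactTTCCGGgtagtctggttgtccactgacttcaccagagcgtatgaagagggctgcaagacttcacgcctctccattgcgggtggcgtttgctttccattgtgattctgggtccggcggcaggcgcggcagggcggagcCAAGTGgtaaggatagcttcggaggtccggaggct
Cox8b, muscle isoform, chr7:140900447-140900696, minus strand: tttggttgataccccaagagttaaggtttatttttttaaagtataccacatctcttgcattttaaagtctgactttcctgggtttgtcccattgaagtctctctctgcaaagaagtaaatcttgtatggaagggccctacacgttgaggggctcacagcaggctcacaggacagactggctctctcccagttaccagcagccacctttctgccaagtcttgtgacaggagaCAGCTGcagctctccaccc
Cox8a, ubiquitous isoform, chr19:7217617-7217866, minus strand: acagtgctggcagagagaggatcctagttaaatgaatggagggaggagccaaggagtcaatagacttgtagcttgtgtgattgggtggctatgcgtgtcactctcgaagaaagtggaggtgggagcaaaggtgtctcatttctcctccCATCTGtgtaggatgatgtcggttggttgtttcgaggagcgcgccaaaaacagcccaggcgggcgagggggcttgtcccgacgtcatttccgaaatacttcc
Each of the 4 windows held 1 match to CANNTG and none to TGCGCA, and the Cox7a2 window also held 1 match to CCGGAA on the opposite strand. Windows of this length held TGCGCA in 4 of 31 matched members (12.9%) against 6.43% of 32851 promoters in the table, CCGGAA in 11 of 31 (35.5%) against 12%, and CANNTG in 21 of 31 (67.7%) against 66.2%. A match is a description of letters and was not tested as a site.

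Cox7a1 in the non-cachectic mock diaphragm had a lowest value of 1105, a median of 1162 and a highest of 1446 TPM, and in the cachectic mock diaphragm 676.7, 1026 and 1182 TPM. The upper end of the cachectic libraries reached into the range of the non-cachectic ones. Under rFibcd1 the non-cachectic libraries had 1069, 1231 and 1388 TPM and the cachectic libraries 565.9, 968 and 1461 TPM, so that the cachectic range was wider at both ends. Cachectic tibialis anterior libraries had 702, 639, 165, 609 and 575 TPM against 884, 963, 869, 854 and 876 TPM. Cachectic soleus libraries had 648, 439, 99.3, 397 and 507 TPM against 848, 825, 711, 683 and 709 TPM. In both limb muscles every cachectic library lay below every non-cachectic one. The same held for 341 of all 14159 genes compared in the tibialis anterior and for 740 in the soleus. The lowest in each muscle was library 8, by the number in the table's column names. What that number denotes is not stated.

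Cox7a2 had 483, 512 and 616 TPM (lowest, median, highest) in non-cachectic mock diaphragm and 519, 589 and 696 TPM in cachectic mock diaphragm. Tibialis anterior libraries had 348, 342, 487, 345 and 362 TPM with the cachectic melanoma against 343, 390, 339, 349 and 362 TPM without, and in the soleus 582, 469, 503, 503 and 629 TPM against 462, 475, 510, 477 and 482 TPM. The groups overlapped in all 3 muscles, and Cox7a2 was not called in any of these comparisons.

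The log2 ratio of Cox7a1 to Cox7a2 ran from 1.13 to 1.26 with a median of 1.22 in the 9 non-cachectic mock diaphragms and from -0.04 to 0.98 with a median of 0.80 in the 10 cachectic ones. These ranges did not overlap. The mean difference was -0.56 ± 0.12 (SE; exact permutation p = 2.17e-05 two-sided, the smallest this design allows; 0.000585 adjusted over 27 ratio tests). Under rFibcd1 the ratio ran from 1.04 to 1.27 with a median of 1.21 in non-cachectic and from -0.08 to 1.22 with a median of 0.62 in cachectic diaphragm, with overlap at the top, and the mean difference was again -0.56 ± 0.15 (permutation p = 0.0006, adjusted 0.00385). In cachectic diaphragm the SD of the log2 ratio was 0.37 in mock and 0.49 in rFibcd1 libraries, against 0.04 and 0.07 in the non-cachectic groups.

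In the tibialis anterior the log2 ratios were 1.01, 0.90, -1.55, 0.82 and 0.67 in cachectic and 1.36, 1.30, 1.36, 1.29 and 1.27 in non-cachectic libraries. In the soleus they were 0.16, -0.10, -2.33, -0.34 and -0.31 against 0.87, 0.79, 0.48, 0.52 and 0.55. The groups did not overlap in either muscle. The differences of -0.95 ± 0.48 and -1.23 ± 0.45 (SE, n = 5 each) each had an exact permutation p of 0.00794, the smallest possible with 5 against 5, and an adjusted p of 0.0195. Library 8 was the lowest in tibialis anterior, soleus and cachectic mock diaphragm. Without it the differences were -0.47 in the tibialis anterior and -0.79 in the soleus, and the exact permutation p was 0.0159 in both. As plain ratios the group means fell from 2.32 to 1.62 in mock diaphragm, from 2.50 to 1.51 in tibialis anterior and from 1.57 to 0.768 in soleus.

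**Figure D1:**
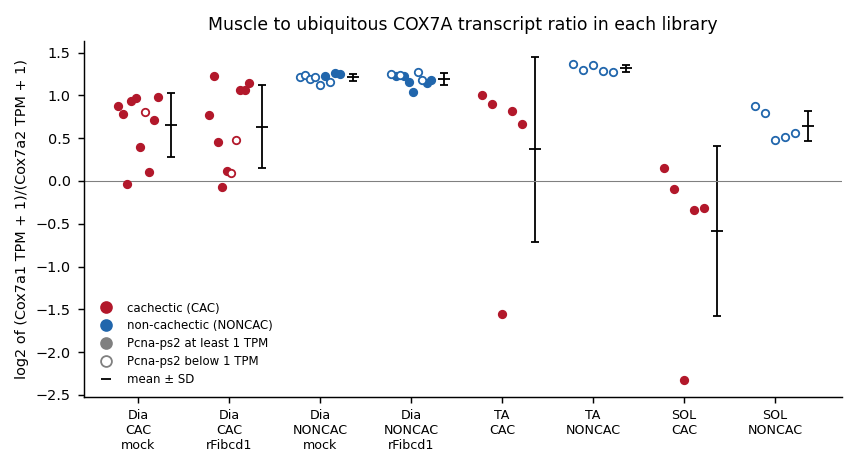
Log2 ratio of Cox7a1 to Cox7a2 (TPM + 1 each; y axis) in every library of the 8 groups (x axis), with a point per library and bars for the group mean ± SD. Non-cachectic mock diaphragms sit between 1.13 and 1.26, cachectic mock diaphragms between -0.04 and 0.98, and the lowest cachectic tibialis anterior and soleus libraries at -1.55 and -2.33.

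rFibcd1 moved the Cox7a ratio by -0.02 ± 0.19 in cachectic (permutation p = 0.924) and -0.02 ± 0.03 in non-cachectic diaphragm (exact permutation p = 0.507). The Cox6a ratio moved by -0.33 ± 0.26 (permutation p = 0.227) and -0.35 ± 0.22 (exact permutation p = 0.102) and the Cox8 ratio by -0.13 ± 0.20 (permutation p = 0.532) and -0.26 ± 0.17 (exact permutation p = 0.119) in these groups, and none of the 6 shifts passed. Among the libraries with Pcna-ps2 at or above 1 TPM the Cox6a shifts were -0.53 and -0.56 (exact permutation p = 0.0396 and 0.0714) and the Cox8 shifts -0.23 and -0.50 (exact permutation p = 0.303 and 0.0476). The Cox7a shifts there were 0.086 and -0.085 (exact permutation p = 0.692 and 0.0476). The lowest adjusted p over the 12 permutation tests of ratios there was 0.0952. Within the same libraries, the cachectic difference in the Cox7a ratio was -0.61 in mock (9 against 3 libraries, exact permutation p = 0.00909, the smallest that design allows, and 0.0952 after adjustment) and -0.44 under rFibcd1 (exact permutation p = 0.0293, adjusted 0.0952), so neither passed after adjustment. In the diaphragm 6 libraries had Ucp1, the brown-fat uncoupling protein, at 5 TPM or more. Without them the differences were -0.63 and -0.58 (exact permutation, adjusted p = 0.000987 and 0.00373).

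The other isoform pairs moved less. Log2 Cox8b to Cox8a was -0.35 ± 0.13 lower in cachectic mock diaphragm (exact permutation p = 0.0128, adjusted 0.0289), with a mean of 3.54 against 3.89 and overlapping ranges. The adjusted call was lost without the Ucp1 libraries (-0.32, exact permutation p = 0.0332, adjusted 0.133) and among the libraries with Pcna-ps2 at or above 1 TPM (-0.49, exact permutation p = 0.0182, adjusted 0.0952). Cox8b itself had 2481 ± 390 against 2214 ± 256 TPM, with no call, and Cox8a carried the movement. Cox8a had a lowest, median and highest value of 150, 212 and 276 TPM in cachectic mock diaphragm and 125, 151 and 166 TPM in non-cachectic mock diaphragm, so most cachectic libraries exceeded the non-cachectic maximum while the lowest lay within it. The Cox8 ratio differed by -0.21 under rFibcd1 (permutation p = 0.364), by -0.20 in the tibialis anterior (exact permutation p = 0.524) and by -0.62 in the soleus (exact permutation p = 0.0397, adjusted 0.0765), where it was -0.38 without library 8.

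Cox6a2 was 4.78 log2 units above Cox6a1 in cachectic and 4.82 in non-cachectic mock diaphragm, a difference of -0.04 ± 0.17 (exact permutation p = 0.82). The same difference was -0.02 ± 0.30 under rFibcd1, 0.05 ± 0.07 in the tibialis anterior and -0.36 ± 0.27 in the soleus, and none passed the test. Between the diaphragm and each limb muscle all 3 pairs differed. In non-cachectic mice the Cox6a ratio was lower in diaphragm than in tibialis anterior by -0.70 and than in soleus by -0.81, and the Cox8 ratio by -0.82 and -0.24. The Cox7a ratio was lower in diaphragm than in tibialis anterior by -0.11 and higher than in soleus by 0.57 (exact permutation p = 0.000999 for all of these, the smallest possible, except 0.014 for the Cox8 pair against soleus). Between tibialis anterior and soleus the Cox7a and Cox8 ratios differed by 0.67 and 0.58 (exact permutation p = 0.00794 for both, adjusted 0.0195), and the Cox6a ratio by -0.11 ± 0.08 (exact permutation p = 0.254, adjusted 0.361), which did not pass. The ratio tests between muscles take libraries of different muscles as independent, and no block on column number was run for them.

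**Figure D2:**
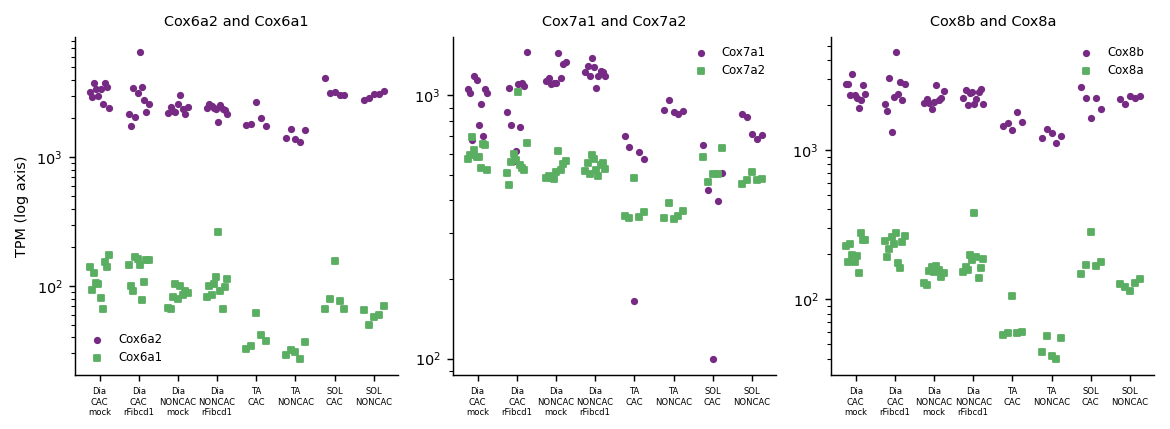
TPM of the muscle and ubiquitous isoforms of Cox6a, Cox7a and Cox8 (log10 y axis) in every library of the 8 groups (x axis), with a point per library. Cox6a2 and Cox8b stand far above Cox6a1 and Cox8a in every group, while Cox7a1 falls to 165 and 99.3 TPM, below Cox7a2, in library 8 of the cachectic tibialis anterior and soleus.

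In the mock diaphragm, 7 of 41 members were called between cachectic and non-cachectic mice, 6 higher and 1 lower, where 33.5% of all 13426 genes tested were called, 30.9% higher and 2.67% lower. The members' median change was 0.08 (log2), with 30 of 41 above 0, against 0.20 for all genes. No complex III gene was called. Of the complex IV genes, Cox8a by 0.50 ± 0.13 (SE; adjusted p = 0.00369, limma) and Cox6a2 by 0.39 ± 0.14 (adjusted p = 0.0286) were higher and Cox7a1 was lower by -0.36 ± 0.13 (adjusted p = 0.0252). Cox6a2 had 2423, 3292 and 3737 TPM (lowest, median, highest) against 2173, 2356 and 3016 TPM, with overlapping groups.

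The other 4 genes called higher belonged to the ATP synthase. Atp5g2, a c-subunit gene, had 283.5, 340 and 391 TPM against 234.5, 253 and 305 TPM and rose by 0.41 ± 0.09 (adjusted p = 0.000709, limma). Atp5g1, its paralogue, had 156, 256 and 305 TPM against 159, 181 and 304 TPM and rose by 0.33 ± 0.12 (adjusted p = 0.0297). The groups overlapped for both. Among non-cachectic mock libraries, Atp5g1 had 231 to 304 TPM at Pcna-ps2 of 1 TPM or more. Those below 1 TPM had 159 to 189 TPM. The Atp5g1 call was lost with that division as a term in the fit. The third c-subunit gene, Atp5g3, had 696.3 ± 94.9 TPM against 709.7 ± 71.8 TPM, a change of -0.03 ± 0.09 that was not called. Atp5c1, the gamma shaft, and Atp5l, the g subunit of the membrane part, rose by 0.20 ± 0.07 and 0.21 ± 0.08, the size of the median of all genes, and turned to -0.03 and -0.03 after median-ratio scaling.

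That scaling left 3 calls in the mock diaphragm, all lower, where 15.8% of all genes were called and 8.41% were lower. They were Cox7a1 at -0.59, the complex III core gene Uqcrc2 at -0.38 and the coupling-factor gene Atp5j at -0.35. None of the 6 members called higher on the deposited scale passed after it. Leaving out single libraries gave 4 to 9 calls, where 26.8% to 41.4% of all genes were called, and the 4 came without cachectic mock library 8 and without cachectic mock library 32. With the Pcna-ps2 division as a term in the fit there were 3 calls, where 15.3% of all genes were called, and among the libraries at or above 1 TPM none by limma, where 5.69% were and 7 members had p under 0.05 before adjustment.

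Under rFibcd1 the same comparison gave 3 members called, all lower, where 9.11% of all genes were called and 1.97% were lower. They were Cox7a1 at -0.44 ± 0.12 (adjusted p = 0.0194, limma), Atp5sl at -0.29 ± 0.10 (adjusted p = 0.0491) and Uqcrc1, the first core protein of complex III, at -0.25 ± 0.08 (adjusted p = 0.0419). Atp5sl had a lowest, median and highest value of 21.4, 28.5 and 37.5 TPM in cachectic and 30.4, 35.6 and 38.9 TPM in non-cachectic libraries. Uqcrc1 had 270.6, 367 and 467 TPM against 398.5, 436 and 469 TPM. Cachectic libraries spread downward from the non-cachectic range in both genes. Of 39 fits that left out 1 library, 26 lost the Atp5sl call, 12 that of Uqcrc1 and 2 that of Cox7a1. Uqcrc2 at -0.28 and the Rieske protein gene Uqcrfs1 at -0.24 had adjusted p of 0.053 and 0.057. The members' median was 0.01 against 0.08 for all genes. After median-ratio scaling 3 members were called lower, Cox7a1, Atp5sl and, in place of Uqcrc1, Uqcrc2, where 8.97% of all genes were called and 4.74% were lower. The number called ran from 0 to 7 over fits that left out 1 library, with 0 without cachectic rFibcd1 library 4 and without library 5, and 16 of 39 such fits moved it by more than 1.5 times.

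rFibcd1 against mock gave no member called in cachectic or in non-cachectic diaphragm by limma, where 0.0447% and 0.417% of all genes were called. Before adjustment 2 members had p under 0.05 in the first comparison and 1 had it in the second, and a Dunn test adjusted over genes also called none. The lowest p in cachectic diaphragm belonged to Atp5a1 at -0.18 (adjusted p = 0.362) and Atp5sl at -0.20 (adjusted p = 0.455), and in non-cachectic diaphragm to Cox8a at 0.31 (adjusted p = 0.265) and Atp5g1 at 0.23 (adjusted p = 0.29). Atp5a1 had 1837, 2154 and 2494 TPM in cachectic mock and 1648, 1823 and 2495 TPM in cachectic rFibcd1 diaphragm. The lower end and the median were lower with rFibcd1 and the highest values were alike. The interaction, the difference between the cachectic effects with and without rFibcd1, called no member by limma, where 0.0223% of all genes were called. Before adjustment 3 members had p under 0.05. Atp5g1 at -0.43 and Atp5a1 at -0.25 had the lowest p (adjusted p = 0.543 and 0.548). The cachectic comparisons with and without rFibcd1 use separate libraries, and a call in either of them alone does not show that they differ.

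With the cachectic melanoma 13 of 40 members were called in the tibialis anterior, 6 higher and 7 lower, where 60.2% of all 11105 genes were called, 56.4% higher and 3.78% lower. The members' median was 0.01 against 0.41 for all genes. Complex III had 2 of 8 genes lower, complex IV 4 higher and 2 lower of 15, and the ATP synthase 2 higher and 3 lower of 17. Higher with the cachectic melanoma were Cox7b, a small complex IV subunit, by 0.89 ± 0.18 (adjusted p = 0.00294, limma), Atp5g2 by 0.61 ± 0.14, Cox8a by 0.49 ± 0.18, Cox6a2 by 0.42, Atp5s by 0.32 and Cox8b by 0.29. Lower were Cox7a1 by -0.88 ± 0.32 (adjusted p = 0.034), Uqcrc2 by -0.37 ± 0.09, Cox5a, a matrix-side subunit of complex IV, by -0.36 ± 0.09, Atp5o by -0.35 ± 0.08, Atp5g3 by -0.32, Uqcrc1 by -0.32 and Atp5h by -0.28. Without library 8 the change of Cox7a1 was -0.50 and that of Cox8a 0.33. The calls of Cox7a1, Uqcrc1 and Cox8b were each lost in 5 of 10 fits that left out 1 library, those of Cox7a1 without any 1 of the 5 non-cachectic libraries, and the calls of Atp5s, Cox8a and Atp5g3 in 4, 3 and 3.

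Atp5g2 and Atp5g3, which encode the same mature protein, thus moved in opposite directions in deposited TPM in the tibialis anterior. After median-ratio scaling Atp5g2 was no longer called higher, while Atp5g3 was still called lower. Atp5g2 had 282, 296, 470, 299 and 276 TPM in cachectic and 206, 206, 211, 210 and 203 TPM in non-cachectic libraries. Atp5g3 averaged 378.1 ± 46.4 and 471.8 ± 34.3 TPM (SD, n = 5 each). Atp5o, the oligomycin-sensitivity-conferring subunit that ties the catalytic head to the stator, had 320, 303, 308, 330 and 308 TPM against 402, 412, 416, 374 and 399 TPM. Atp5g2 and Atp5o were without overlap between the groups, in opposite directions. Of all 14159 genes compared in this way in that muscle, 6056 lay above and 341 below without overlap. After median-ratio scaling 27 members were called, 26 lower and 1 higher, where 40.3% of all genes were called and 21.9% were lower, and the members' median was -0.49 against -0.01. The lower ones were 7 of 8 complex III, 7 of 15 complex IV and 12 of 17 ATP synthase genes, and the higher one was Cox7b. Cox8b, Atp5s, Cox6a2 and Cox8a turned to -0.21, -0.15, -0.08 and -0.00333 under that scaling, so their rise in TPM did not hold there.

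In the soleus 5 of 40 members were called, 4 higher and 1 lower, where 25.1% of all 11957 genes were called, 17.5% higher and 7.54% lower. Cox7b rose by 0.69 ± 0.11 (adjusted p = 0.00151, limma), Cox8a by 0.55 ± 0.15 (adjusted p = 0.0194), Atp5g1 by 0.35 ± 0.11 and Atp5g2 by 0.32 ± 0.09. Atp5o fell by 0.34 ± 0.10 (adjusted p = 0.0292). Of 10 fits that left out 1 library, 8 lost the calls of Atp5g1 and Atp5g2, 6 that of Atp5o, 1 that of Cox8a and 0 that of Cox7b. Cox8a had 147, 170, 280, 167 and 177 TPM in cachectic and 127, 121, 114, 127 and 136 TPM in non-cachectic libraries, without overlap. The same held in that direction for 1836 of all 14159 genes compared. Atp5o had 421, 335, 298, 339 and 399 TPM against 471, 459, 465, 409 and 447 TPM, and the highest cachectic library lay above the lowest non-cachectic one. Cox7a1 changed by -1.08 ± 0.40 with an adjusted p of 0.0692 and so was not called, and the value rested in part on library 8, without which it was -0.62. The members' median was -0.08 against 0.09 for all genes, and after median-ratio scaling 4 were called, Cox7b and Cox8a higher and Atp5o and Cox4i2 lower, where 28% of all genes were called. With TPM rescaled to the sum outside the mitochondrially encoded genes, more were called and most were lower, as given with the processing. Without single libraries the number called ran from 2 to 6, with 2 without cachectic library 7 and without non-cachectic library 61, 62, 63 or 65 and 3 without non-cachectic library 64.

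**Figure D3:**
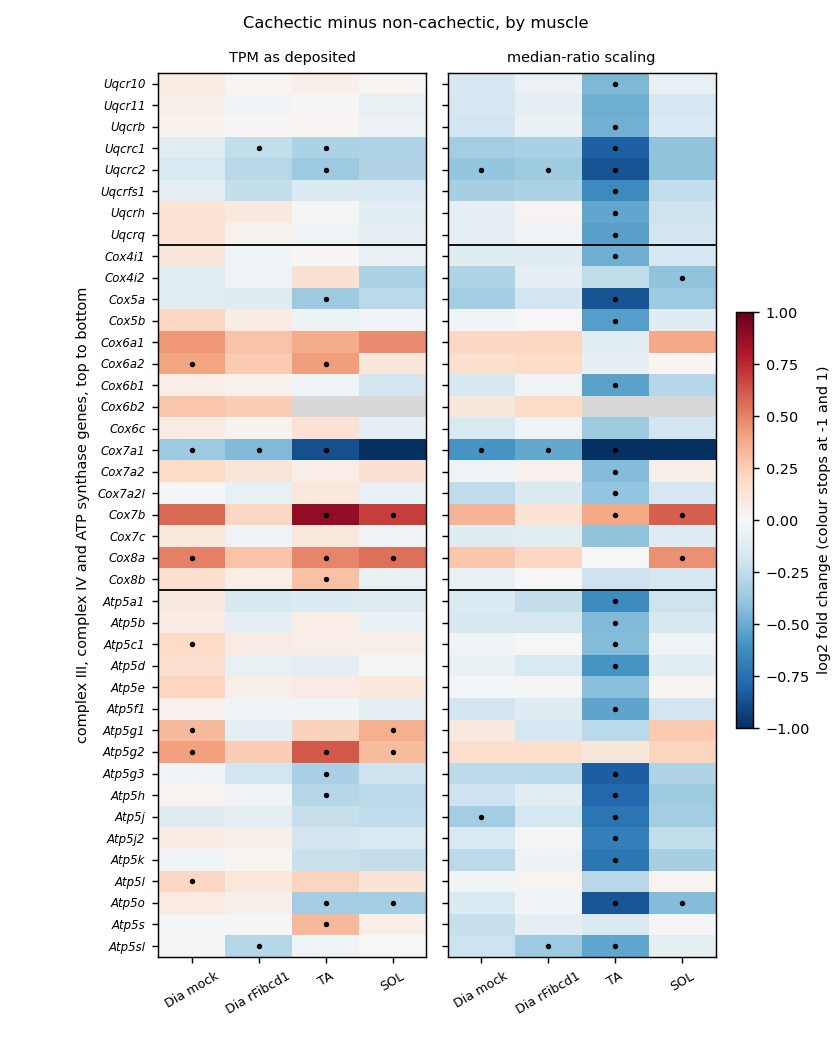
Log2 change with the cachectic melanoma for the 41 tested members (rows, by complex; 40 in the limb muscles, grey where not tested). Columns are mock diaphragm, rFibcd1 diaphragm, tibialis anterior and soleus. The left panel shows TPM as deposited and the right panel median-ratio scaling. Colour gives the log2 change, and dots mark adjusted p under 0.05 (limma). On the deposited scale Cox7a1 is lowest in every column, and Cox7b is highest in all but the rFibcd1 diaphragm.

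The effect of the melanoma was then compared between muscles in a single fit over the 39 libraries without rFibcd1. That fit took libraries of different muscles as independent. More members were called with a block on column number, as given with the processing. Atp5o differed between diaphragm and tibialis anterior by 0.44 ± 0.09 (adjusted p = 0.00299, limma), the single member called for that difference, where 5.04% of all genes were. It also differed between diaphragm and soleus by 0.42 (adjusted p = 0.00532), with Cox6b2 at 0.55 (adjusted p = 0.0406), where 2.52% of all genes were called. Atp5o changed by 0.08 ± 0.10 in mock diaphragm, where it had 444.6, 524 and 554.5 TPM in cachectic and 454.6, 481 and 517 TPM in non-cachectic libraries. Cox6b2 was also the member called between tibialis anterior and soleus, by 0.53 (adjusted p = 0.0292, limma), where 20.4% of all genes were called, on values of at most 1.70 TPM in the limb muscles. It passed the filter of this fit through the diaphragm libraries, being below it in each limb muscle's own fit. Neither Cox6b2 difference is therefore read as a result. Its call between diaphragm and soleus was lost at a pseudocount of 0.1 and in 16 of 39 fits that left out 1 library. After median-ratio scaling Atp5o was 1 of 6 members called between diaphragm and tibialis anterior, at 0.70, where 5.15% of all genes were called, and no member was called between diaphragm and soleus by limma, where 3.73% were and 1 member had p under 0.05 before adjustment. Atp5o shares 45.6% of its 50-base words with other annotated transcripts, and a second annotated gene of the same name overlaps it on chromosome 16, so that its reads may have been split. Atp5l shares 84.8%, Uqcrb 43.2%, Atp5g2 38.3%, Atp5h 35.5% and Cox5a 29.2%, whereas Cox7a1, Cox7a2, Cox7b, Cox8a, Cox8b and Atp5g3 share none.

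Cox7b, a gene of the X chromosome, had the largest rise of any member in both limb muscles, and most of its values followed the Pcna-ps2 division of the libraries. Tibialis anterior libraries had 871, 964, 1538, 1318 and 738 TPM in cachectic and 554, 608, 570, 530 and 563 TPM in non-cachectic libraries, and in the soleus 1051, 902, 918, 1235 and 1279 TPM against 682, 669, 673, 615 and 665 TPM. The groups did not overlap, and neither did the division. Of all 14159 genes compared, 6056 lay above without overlap in the tibialis anterior and 1836 in the soleus. In the diaphragm the 6 non-cachectic mock libraries with Pcna-ps2 below 1 TPM had 642 to 711 TPM and the 4 of the non-cachectic rFibcd1 group 664 to 710 TPM. The 3 non-cachectic mock libraries at or above 1 TPM had 1356 to 1635 TPM, and the 9 cachectic mock libraries 990 to 2074 TPM. Non-cachectic mock libraries at or above 1 TPM thus lay within the cachectic range. Under rFibcd1 the division held less well: the libraries at or above 1 TPM had 693.6 to 2182.4 TPM in the cachectic and 850.8 to 1858 TPM in the non-cachectic group, the 693.6 TPM within the range of libraries below 1 TPM, and the 2 cachectic libraries below 1 TPM had 708 and 1077 TPM. The change in mock diaphragm was 0.57 ± 0.24 (adjusted p = 0.0643, limma) over all libraries and -0.11 among those at or above 1 TPM. The division was set from these data, so its values are a description, and whether the limb rise has the same source cannot be told apart from the melanoma.

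**Figure D4:**
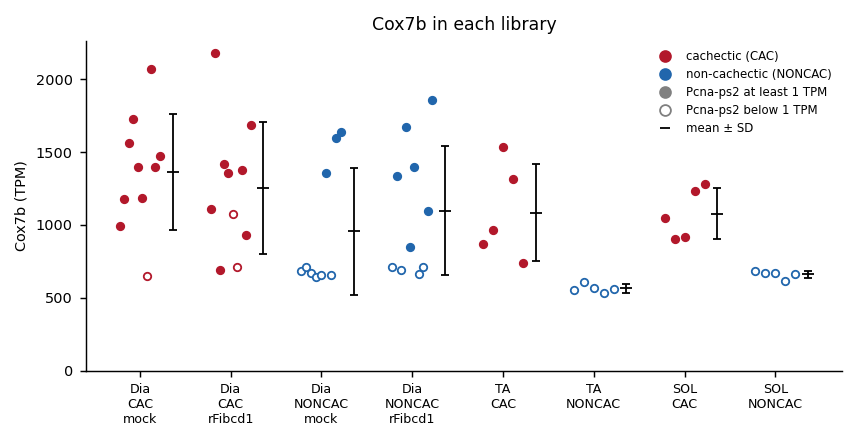
Cox7b TPM (y axis) in every library of the 8 groups (x axis), with points marked by Pcna-ps2 at or above 1 TPM or below it. All but 1 of the libraries below 1 TPM sit between 530 and 711 TPM, the exception being a cachectic rFibcd1 diaphragm at 1077 TPM, and those of the non-cachectic mock diaphragm at or above 1 TPM sit between 1356 and 1635 TPM, inside the cachectic range.

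Summed by complex, the mitochondrially encoded subunits were lower relative to the nuclear ones in cachectic muscle, and the nuclear ones averaged a lower share of the TPM outside mitochondrial genes. In mock diaphragm the mitochondrial transcripts took 38.1% ± 3.18 of TPM in cachectic (SD, n = 10) and 47.5% ± 2.97 in non-cachectic libraries (n = 9). The summed nuclear complex IV genes had 14321 ± 1283 against 12788 ± 1302 TPM, and the ratio of the mitochondrially encoded to the nuclear subunits of complex IV was 12.6 ± 1.90 against 17.5 ± 2.38. The same ratio was 5.66 against 7.08 for complex III and 6.05 against 8.24 for the ATP synthase. Under rFibcd1 the complex IV ratio was 13.2 ± 2.54 against 15.6 ± 1.34. In the soleus it was 11.4 ± 0.781 against 15.4 ± 0.950, and in the tibialis anterior 21.8, 20.2, 9.37, 16.3 and 19.4 against a mean of 24.2 ± 1.07. The tibialis anterior groups did not overlap, and library 8 was again the lowest. Among the non-cachectic mock diaphragms, those with Pcna-ps2 at or above 1 TPM had complex IV ratios of 12.8, 15.7 and 15.3 and those below it 17.5 to 19.9, and the part of that division in the fall was not tested. As a share of the TPM outside the mitochondrial genes, which the fall of those genes does not inflate, the nuclear complex III sum was 0.842% ± 0.0902 against 0.977% ± 0.0537 in mock diaphragm, 0.638% ± 0.0841 against 0.783% ± 0.0515 in tibialis anterior and 0.620% ± 0.108 against 0.778% ± 0.0367 in soleus. The limb groups did not overlap, with cachectic libraries at most 0.711% and 0.724% and non-cachectic ones at least 0.718% and 0.744%, and the diaphragm groups did. The nuclear complex IV share was 2.32% against 2.43%, 1.53% against 1.65% and 1.75% against 2.05% in these muscles, and the ATP synthase share 2.04% against 2.23%, 1.49% against 1.77% and 1.49% against 1.80%. All of these means were lower in the cachectic group, with overlapping groups for complex IV and the ATP synthase, and the shares were not tested. In a bulk sample, fewer muscle fibres and fewer of these transcripts per fibre cannot be told apart.

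**Figure D5:**
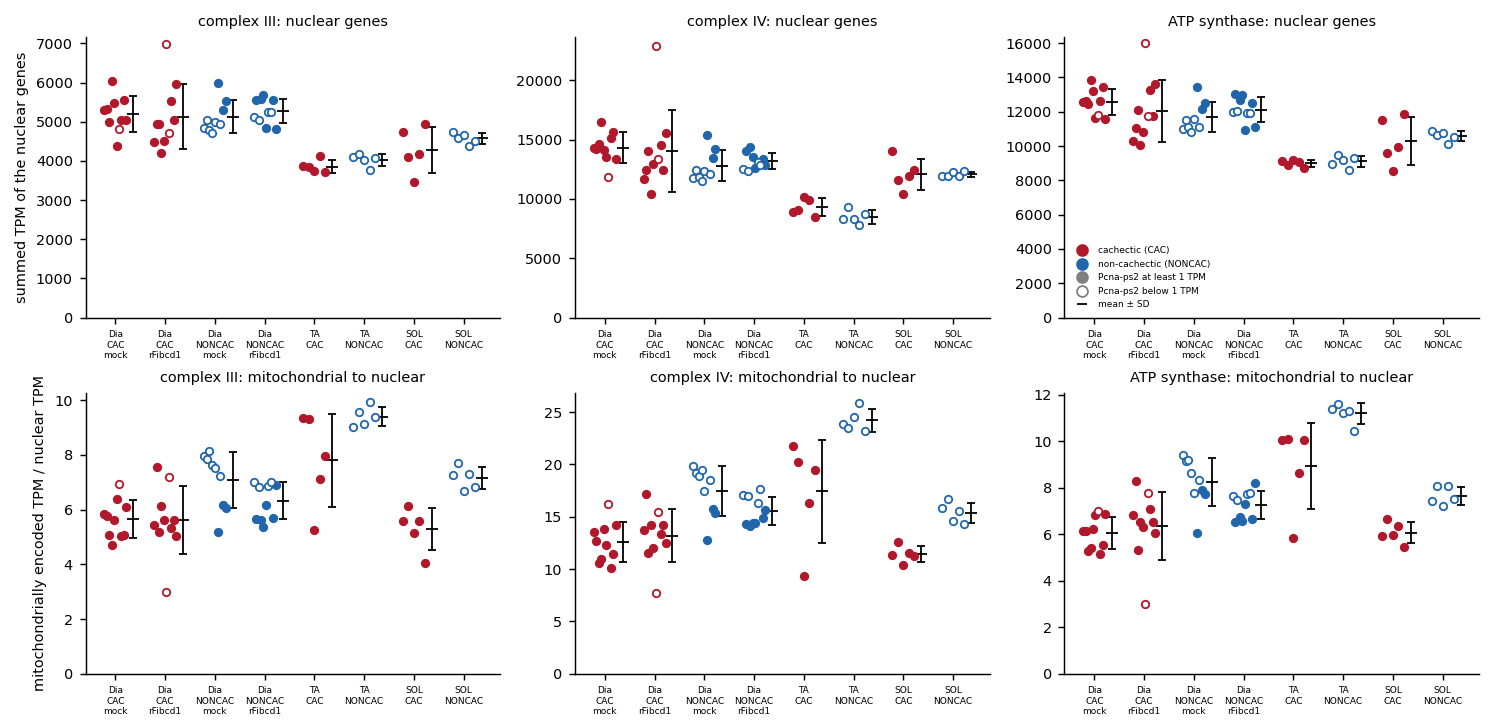
Summed TPM of the nuclear members of complex III, complex IV and the ATP synthase, and ratio of the mitochondrially encoded to the nuclear subunits of the same complex (y axes), per library in the 8 groups (x axis) with the group mean ± SD. The complex IV ratio falls from a mean of 17.5 to 12.6 in mock diaphragm and from 15.4 to 11.4 in soleus, while the nuclear sums, in TPM, are 14321 against 12788 and 12070 against 12092 for complex IV. TPM of nuclear genes rise when mitochondrial transcripts fall, and as a share of the TPM outside them the complex IV sums are lower in both muscles.

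Other genes of the pathway were counted from fixed lists with the same fits, whose shares of all genes called lower were 2.67% in mock diaphragm, 1.97% under rFibcd1, 3.78% in tibialis anterior and 7.54% in soleus. The shares called higher were 30.9%, 56.4% and 17.5% in mock diaphragm, tibialis anterior and soleus. Of the 6 mitochondrially encoded subunits, 5 fell in cachectic mock diaphragm, 2 under rFibcd1, 2 in tibialis anterior and 3 in soleus, and none rose. mt-Co1, the catalytic subunit of complex IV, fell by 0.32 ± 0.08 in mock diaphragm, by 0.46 in tibialis anterior and by 0.51 in soleus (adjusted p = 0.00315, 0.048 and 0.029, limma). Of 36 complex I genes 3 rose and none fell in mock diaphragm, 2 fell under rFibcd1, 4 rose and 5 fell in tibialis anterior and 3 rose and 1 fell in soleus. Ndufa6 and Ndufa7, accessory subunits, rose by 0.37 and 0.35 in mock diaphragm and by 0.56 and 0.65 in tibialis anterior, whereas the core subunit Ndufs1 fell by 0.46 in tibialis anterior, by 0.52 in soleus and by 0.35 under rFibcd1. After median-ratio scaling no complex I gene was called higher and 2 were called lower in mock diaphragm, and 29 of 36 complex I genes and all 4 complex II genes were called lower in tibialis anterior, beside the 26 of 40 members, where 8.41% and 21.9% of all genes were lower in these muscles on that scale. Of the 4 complex II genes, Sdhc fell by 0.25 in mock diaphragm and by 0.41 in tibialis anterior, with Sdhb by 0.36.

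Among 24 tested assembly factors of complex IV, 4 rose in mock diaphragm, 6 rose and 2 fell in tibialis anterior and 3 rose and 2 fell in soleus, where 30.9%, 56.4% and 17.5% of all genes were called higher. After median-ratio scaling the counts turned, to 0 higher and 5 lower in mock diaphragm, where 8.41% of all genes were lower, and 0 higher and 15 lower in tibialis anterior (median -0.38), where 21.9% were lower, with 2 higher and 3 lower in soleus. Cox18, which inserts a domain of the Co2 subunit, rose by 0.39, 0.77 and 0.87 in these muscles, and Taco1, the translational activator of mt-Co1, fell by 0.60 in tibialis anterior. For complex III, Lyrm7, the chaperone of the Rieske protein, fell by 0.57 ± 0.19 in mock diaphragm, by 1.10 ± 0.18 in tibialis anterior and by 1.02 ± 0.15 in soleus (adjusted p = 0.0226, 0.00113 and 0.00113, limma). Atpaf1, the chaperone of the ATP synthase beta subunit, fell by 0.88 and 1.12 in the limb muscles, and Tmem242, an assembly factor of the c ring, fell by 0.23, 0.45 and 0.48 in all 3 muscles. Outside the symbol rule, Atpif1, the inhibitor of the ATP synthase, rose by 0.26, 0.26 and 0.57 in mock diaphragm, rFibcd1 diaphragm and tibialis anterior, and Cyc1 and Cycs, the cytochromes c1 and c, fell by 0.42 and 0.33 in tibialis anterior. Of 9 regulators, Perm1, a muscle-specific regulator of oxidative genes, fell by 0.63, 0.64 and 0.96 in mock diaphragm, rFibcd1 diaphragm and tibialis anterior, Ppargc1b fell by 0.61 and 0.52 in the limb muscles, Gabpa fell by 0.36 in soleus, and Nrf1 rose by 0.37, 0.64 and 0.30 in mock diaphragm, tibialis anterior and soleus.

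Markers of other cells moved beside these results, on a scale on which 56.4% of all genes were called higher in tibialis anterior, 17.5% in soleus and 30.9% in mock diaphragm. In the tibialis anterior the summed macrophage markers averaged 18.3 TPM (5.61 to 40.0) in cachectic and 4.63 TPM (3.27 to 6.55) in non-cachectic libraries, with 3 of 3 tested genes called higher, and both tested neutrophil genes were called higher in tibialis anterior, soleus and mock diaphragm. After median-ratio scaling 2 of the 3 macrophage genes were called in tibialis anterior, and of the 2 neutrophil genes 2 were called in each limb muscle and 1 in mock diaphragm. Summed white-adipocyte markers in the diaphragm had 161.5 to 2315 TPM in cachectic mock and 115 to 1086 TPM in non-cachectic mock libraries, with 1 of 4 genes called higher, and summed liver markers reached 7024 TPM in a non-cachectic mock library. Ucp1 at 5 TPM or more marked 2 cachectic mock, 2 cachectic rFibcd1 and 2 non-cachectic rFibcd1 diaphragms, and Cox8a and Cox6a1 reached 378 and 262.0 TPM in the library with Ucp1 at 216.7 TPM, against at most 197 and 117 TPM in the rest of its group. Of 5 slow-fibre genes in the tibialis anterior, 4 were called higher and 1 lower, and after median-ratio scaling 1 higher and 1 lower, although their sum was 25.4 TPM in cachectic and 43.9 TPM in non-cachectic libraries. Fast-fibre genes had 2 of 5 called lower there. The part of these cells and fibre types in the members' values was not tested, beyond the exclusion of the Ucp1 libraries given with the Cox7a ratio.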

How the data were processed

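RNA-seq libraries of diaphragm, tibialis anterior and soleus were aligned by the authors to GRCm38 (mm10) with CLC Genomics Workbench, and the deposited values are TPM per gene symbol, 1 column per library. The annotation used is not given in the sources used here, and GEO's labels and the methods name different library kits and instruments. The labels call the libraries biological replicates and do not tie them to animals, so p-values measure the spread between libraries. The authors' RNA-seq figure of these diaphragms counts fewer cachectic muscles, with and without rFibcd1, than the cachectic libraries used here. Groups came from the GEO labels, and column names gave the group.

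Differences were fitted with limma 3.58.1 (R 4.3.3; trend) on log2(TPM + 1), so the changes of low genes are understated. Genes needed 1 TPM in as many libraries as the smallest group of the fit, p-values were adjusted over all genes tested (Benjamini-Hochberg), and calls are adjusted p under 0.05. The 4 diaphragm groups shared 1 fit, each limb muscle had its own, and muscles were compared in a fit of the 39 libraries without rFibcd1. Isoform ratios were tested by two-sided permutation of libraries (exact where a group had under 10, otherwise 100000 resamples). Sequences are from RefSeq, positions and shared words from GENCODE. Named genes were the isoform pairs, the 3 highest and 3 lowest called members of each comparison (with none called, the 2 of lowest p), the 2 highest and lowest called of each list, members near 0 and myosins. Others named in the text, such as Uqcrfs1, Atp5j and Atp5g3, were chosen after their values were seen. Members, lists and tests were chosen with earlier results of these data known. The fits were tested on simulated data. Alternatives were the pseudocount, the filter, 2 scalings, single libraries, the Dunn test, the Pcna-ps2 division, a 2-group fit and a block on column number. Those on median-ratio scaling with that division and on Ucp1 libraries were chosen after seeing the data.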

Additional observations from a re-analysis of the deposited data

Results flagged for a closer look

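A library was marked where its gap to the nearest library of its group exceeded Dixon's 95% critical value. Of 373 such tests of a member, a complex sum or an isoform ratio in a group, 58 marked a library, where chance gives about 1 in 20. Cachectic rFibcd1 diaphragm library 11 had 20 of them, tibialis anterior library 8 had 9 and non-cachectic mock diaphragm library 66 had 8. The values below are those of genes and ratios that the report describes.

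In library 11 of the cachectic rFibcd1 diaphragm, Atp5o was 1015 TPM (next 582.0), Cox6a2 6529 TPM (next 3475), Cox7a2 1035 TPM (next 658) and Cox8b 4516 TPM (next 3014), each the highest of its group. In library 56 of the non-cachectic rFibcd1 diaphragm, which had the highest Ucp1, Cox6a1 was 262.0 TPM (next 117) and Cox8a 378 TPM (next 197), and the log2 ratios were the lowest of the group, 2.83 for Cox6a2 to Cox6a1 (next 4.24), 1.04 for Cox7a1 to Cox7a2 (next 1.15) and 2.42 for Cox8b to Cox8a (next 3.43). The part of brown-fat RNA in these values was not tested. Atp5g2 was 285 TPM in library 59 of that group (next 268), and Cox6a2 was 3016 TPM in library 66 of the non-cachectic mock diaphragm (next 2584).

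Library 8 stood apart in both cachectic limb muscles. In the tibialis anterior it had Cox7a1 at 165 TPM (next 575), Atp5g2 at 469.5 TPM (next 299), Cox7a2 at 487 TPM (next 362), Cox8a at 105 TPM (next 59.8), a log2 Cox7a1 to Cox7a2 ratio of -1.55 (next 0.67) and a log2 Cox8b to Cox8a ratio of 3.69 (next 4.62). In the soleus it had Cox6a1 at 157 TPM (next 79.9), Cox8a at 280.5 TPM (next 177) and a log2 Cox7a1 to Cox7a2 ratio of -2.33 (next -0.34). Also in the limb muscles, Cox6a2 was 4108 TPM in cachectic soleus library 6 (next 3188), Cox7a1 963 TPM in non-cachectic tibialis anterior library 62 (next 884), Cox7b 615 TPM in non-cachectic soleus library 64 (next 665) and log2 Cox8b to Cox8a 4.32 in non-cachectic soleus library 63 (next 4.11).

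The effect of the cachectic melanoma differed between muscles by limma's test of the difference for Atp5o, by 0.44 between diaphragm and tibialis anterior and by 0.42 between diaphragm and soleus, and for Cox6b2, by 0.55 between diaphragm and soleus and by 0.53 between tibialis anterior and soleus. Cox6b2 passed the filter of that fit through the diaphragm libraries and was below it in each limb muscle's own fit, so its differences are not read as a result.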

How the results depend on the processing

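Read depth is unknown, the 5 against 5 limb comparisons cannot go below an exact p of 0.00794, and the counts of calls moved with many of the settings. Percentages in parentheses are the shares of all genes called under the same setting. In mock diaphragm the 7 calls (33.5%) became 3 after median-ratio scaling (15.8%) and 9 (14%) with TPM rescaled to the sum outside the mitochondrially encoded genes (rescaled, in what follows), with lower members alone in both, 3 with the division as a term (15.3%), 0 among libraries at or above 1 TPM (5.69%), 0 with scaling and division together (11.6%), 12 by the Dunn test (40.5%), 14 (50.1%) in a fit of the 2 groups alone and 4 to 9 without single libraries. The 3 calls under rFibcd1 (9.11%) became 1 with no filter (4.08%), 6 with a mean of at least 5 TPM (13.1%), 10 rescaled (9.23%), 5 with the division (10.1%), 0 of all genes among libraries at or above 1 TPM (5 members at an unadjusted p under 0.05), 7 without Ucp1 libraries (13.4%), 0 of all genes by the Dunn test (8 members unadjusted), 0 in a fit of 2 groups (2.61%) and 0 to 7 without single libraries. rFibcd1 against mock in cachectic diaphragm gave 1 call, Cox6a2, among libraries at or above 1 TPM (5.57%), and in non-cachectic diaphragm no member in a fit of the 2 groups alone, where 19.6% of all genes were called against 0.417% with 4 groups.

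In the tibialis anterior the 13 calls (60.2%) became 27 after scaling (40.3%), 21 by the Dunn test (66.1%) and 8 to 19 without single libraries, with 8 or 9 without non-cachectic library 61, 62, 63 or 65. The soleus had 5 calls (25.1%), 18 rescaled (31.1%), mostly lower, and 2 to 6 without single libraries. Diaphragm against tibialis anterior had 17 after scaling (70.9%), mostly lower, and 39 to 41 without single libraries. Diaphragm against soleus had 30 rescaled (44.7%) and 9 to 18 without single libraries (9 or 10 without non-cachectic diaphragm library 66, 68 or 70 or soleus library 62 or 63), and tibialis anterior against soleus had 28 after scaling (53.3%), mostly higher, 10 rescaled (63.8%) and 22 to 26 without single libraries. For the difference in melanoma effect between diaphragm and tibialis anterior (5.04% in the main fit), 2 were called at a pseudocount of 0.1 and 2 with a mean of at least 5 TPM. After scaling 6 were called (5.15%), and 1 to 3 without single libraries. Between diaphragm and soleus (2.52%) the counts were 1, 1, 0 (3.73%) and 1 to 2 in that order, with 1 rescaled. Between tibialis anterior and soleus (20.4%) they were 0 with a mean of at least 5 TPM, 3 after scaling, all lower, 2 rescaled and 0 to 1 without single libraries. Shares of all genes under the other settings are not given for these differences, so those counts are not read as a result.

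No Cox7a ratio between cachectic and non-cachectic muscle changed sign or lost its unadjusted call under the alternatives run, while the shift by rFibcd1 in cachectic diaphragm went to 0.0862 among libraries at or above 1 TPM, 0.0515 without Ucp1 libraries and -0.0957 to 0.0602 without single libraries, and in non-cachectic diaphragm to -0.0850 and 0.00231 in the first 2 of these. The Cox6a ratio turned to 0.12 without Ucp1 libraries in mock diaphragm (-0.11 to 0.0675 without single libraries) and to 0.00603 among libraries at or above 1 TPM under rFibcd1 (-0.21 to 0.0700 without single libraries), and its rFibcd1 shift in cachectic diaphragm reached -0.53 among them. The Cox8 ratio's rFibcd1 shift in non-cachectic diaphragm was -0.50 among libraries at or above 1 TPM and -0.32 to -0.127 without single libraries, where the Cox6a shift there was -0.42 to -0.164 and the Cox6a change in soleus -0.53 to -0.132. The Cox8 change was -0.298 to 0.00587 in tibialis anterior and -0.788 to -0.38 in soleus, the higher values without library 8.

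Of 436 refitted values of named genes, 337 kept direction and call, 75 lost the call, 3 gained it and 21 turned. The turned values were Atp5c1 and Atp5l in mock diaphragm (-0.0298 and -0.0254 after scaling, -0.0363 and -0.0320 rescaled), Cox7b in mock diaphragm (-0.11 among libraries at or above 1 TPM, -0.0318 with scaling and division) and under rFibcd1 (-0.0553), Atp5g1 for rFibcd1 in non-cachectic diaphragm (-0.0795), and, after scaling, Cox8b, Atp5s, Cox6a2 and Cox8a in tibialis anterior (-0.21, -0.15, -0.0837 and -0.00333), Atp5e, Atp5l and Uqcr10 in diaphragm against tibialis anterior (-0.40, -0.35 and -0.34) and Atp5o, Cox4i1 and Atp5c1 in tibialis anterior against soleus (0.46, 0.45 and 0.45, and 0.0258, 0.0137 and 0.0119 rescaled). The causes were not tested.

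Equal column numbers across muscles were checked as a possible pairing. Deviations from the group means of same-numbered libraries correlated at 0.046 to 0.537 across genes in 30 pairs, above 0.1 in 28, and 24 correlated best with their own number, a hint from the data and not from the design. With the replicate block on that number, 8, 6 and 4 members were called for the difference in melanoma effect, in place of 1, 2 and 1. These are in the order diaphragm against tibialis anterior, diaphragm against soleus and tibialis anterior against soleus. Of all genes, 17.2%, 7.36% and 41.2% were called with the block, in place of 5.04%, 2.52% and 20.4%. Within a muscle no paired analysis was possible, because the columns of the groups compared share no number. Between muscles no label ties equal column numbers to a mouse, and the column numbers are not the labels' replicate numbers. The Dunn test of the interaction was not run.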
